A study of Saccharomyces cerevisiae with 8 samples.

Results

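Transcripts of a mec1 strain of budding yeast (Saccharomyces cerevisiae) were compared with those of wild type (WT) 30 min after recovery from replication stress had begun. The comparison sets 1 library of strain WFA73, whose genotype is given as mec1, against 1 library of strain WFA72, given as wild type. Both cultures had been arrested with alpha factor, a mating pheromone, and released into 200 mM hydroxyurea for 1 h. The drug was then filtered away and the cells were returned to fresh medium for 30 min (R30). The labels name no further allele, no mating type and no number of clones for either strain, and give no auxotrophic marker. Every feature with at least 1 RPM (reads scaled to a common library total) in either R30 library was taken, which kept 6507 of 6547 features. The other 40 were below 1 RPM in both, the sugar permease gene MPH3 being the nearest to that bound at 0.956 RPM in mec1 and 0.733 RPM in WT. YEL077C, at 0.995 RPM in mec1 and 1.02 RPM in WT, was the lowest feature kept.

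Mec1 is the yeast counterpart of ATR and the kinase at the head of the S-phase checkpoint. It acts through the adaptor Mrc1 and the kinases Rad53 and Dun1. Stalled forks activate it, and it holds back mitosis and late origins and induces the genes of ribonucleotide reductase (RNR), the source of deoxyribonucleotides and the target of hydroxyurea. Once the drug is gone, wild-type cells finish replication, divide and enter the next cell cycle. Cells without Mec1 divide with unfinished chromosomes and lose viability.

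The table also holds the G1, hydroxyurea (HU) and 60 min recovery (R60) libraries of both strains, 8 libraries in all with 1 for each strain and time. Their RPM scales rest on 1596132 to 3935979 reads, with 2441751 reads in mec1 R30 and 1820129 in WT R30. These totals were inferred by taking the smallest positive value among features with 1 window as 1 read. Across the kept features, which are not independent replicates, mec1 R30 correlated with WT R30 at 0.964 and with mec1 R60 at 0.990 (Pearson r of log2(RPM + 1), n = 6507). WT R30 correlated with WT R60 at 0.968. There is no replicate, so no difference was tested. A difference below is mec1 minus WT on the scale log2(RPM + 1), where 1 is 2-fold. The range in brackets after it is a 95% interval of the log2 ratio of the RPM values, computed from the average number of reads in a window, and covers counting error only.

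At R30, 262 of 6507 features (4.03%) were higher in mec1 by 2-fold or more, and 29 (0.446%) were lower. The median difference of all features was 0.13, 4130 differences were positive and 2377 negative, and 83.9% of features lay within 1.5-fold. Features counted as 2-fold were higher in 90.0% of cases. With the median of all features set to 0, 184 (2.83%) were higher and 48 (0.738%) lower, so that 79.3% were higher, and after quantile normalization 133 and 52 (71.9%). The counting interval lay above 0 for 235 of the 262 and below 0 for 28 of the 29. These intervals come from the same R30 values that picked the features, so the counts are no separate check of them. At the edge of the 2-fold bound were PSH1 inside (49.3 RPM in mec1 and 24.2 in WT) and PDS5 outside (22.0 RPM in mec1 and 10.5 RPM in WT) on the higher side, and AAH1 inside (89.3 RPM in mec1 and 183 RPM in WT) and NTE1 outside (67.7 RPM in mec1 and 135 RPM in WT) on the lower side.

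**Figure D1:**
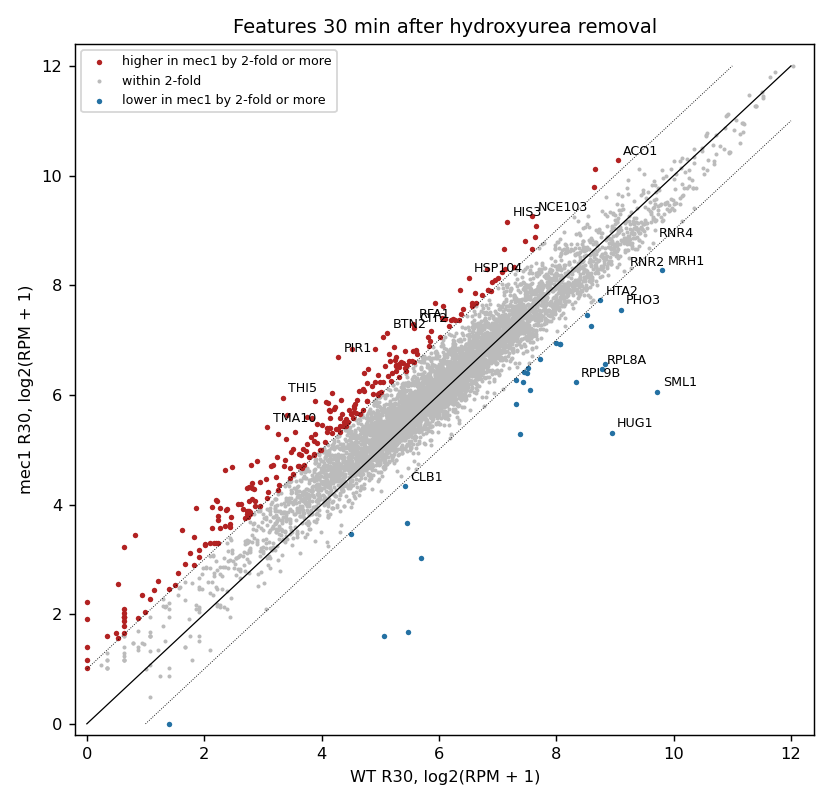
Each point is 1 feature, with its value in WT R30 on the horizontal axis and in mec1 R30 on the vertical axis, both as log2(RPM + 1), and the dotted lines mark 2-fold. The 262 features above the upper line spread over most of the range of values, while the points farthest below the lower line are YER137C-A, SML1, HUG1, YER138C and YER138W-A, followed by RPL8A, YML057C-A and RPL9B.

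Each deposited value appears to average the reads of several windows along the genome that touch the feature or its flanks. A gene can thus carry the difference of its neighbour. The 262 higher features formed 158 groups with overlapping windows and the 29 lower features 15 groups. When the reads of neighbouring genes were separated by a fit, 226 of the 262 and 20 of the 29 kept their sign, and 756 (11.6%) and 195 (3.00%) of the 6507 features were 2-fold higher and lower. In bulk samples such as these, fewer cells that make a transcript and less of that transcript per cell cannot be told apart.

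Of the features counted at R30, 12 were also 2-fold in the same direction in G1, HU and R60, and they lay at 4 places in the genome. The first place was on chromosome XIII. SML1, which encodes the protein inhibitor of RNR, had 21.3, 58.0, 65.5 and 39.6 RPM in the mec1 libraries at G1, HU, R30 and R60, against 245, 453, 845 and 310 RPM in WT. Its R30 difference was −3.67 (−3.93 to −3.45), and the mec1 values were all below the lowest WT value. HUG1, which encodes another small inhibitor of RNR, lies beside SML1 and shares windows with it. It had 7.67, 37.7, 38.6 and 22.2 RPM in mec1, against 76.6, 445, 491 and 219 RPM in WT, a difference of −3.64 (−3.99 to −3.36) at R30. The neighbouring YML057C-A was at 93.5 RPM in mec1 R30 and 454 RPM in WT R30, but its difference turned positive when neighbours were separated. As background, loss of MEC1 is lethal unless dNTP supply is raised, for which laboratories commonly delete SML1. Whether WFA73 carries such a deletion was not tested and is not stated in the labels.

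The second place was on chromosome V. The retrotransposon features YER138C and YER137C-A had 2.05 and 2.18 RPM in mec1 R30, against 32.4 and 43.2 RPM in WT R30, and YER138W-A had 7.17 RPM in mec1 R30 and 50.8 RPM in WT R30. The difference of YER137C-A, −3.80 (−6.07 to −3.12), rests on few reads in mec1. The nearby features YER133W-A, YER134C, YER135C and YER137W-A were higher, at differences of 1.26 to 1.64 at R30 (chosen for their place after their values were seen). Their windows are shared with neighbours, and YER134C took the other sign when neighbours were separated (−4.70). The third place was HIS3 on chromosome XV, which encodes a dehydratase of histidine synthesis and is a common marker in strain construction. It had 293, 474, 570 and 651 RPM in mec1, against 132, 169, 143 and 151 RPM in WT, and its R30 difference was 1.99 (1.81 to 2.20).

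The fourth place was that of MEC1 itself on chromosome II. CKS1, which encodes a subunit of the cyclin-dependent kinase, had 111 RPM in mec1 R30 and 42.0 RPM in WT R30, a difference of 1.38 (1.03 to 1.79). MEC1 shares windows with CKS1, YBR137W and YBR138C, and had 77.1, 124, 83.9 and 76.6 RPM in mec1, against 36.2, 90.3, 35.7 and 38.7 RPM in WT. With neighbours separated, MEC1 came to 53.4 RPM in mec1 R30 and 5.21 RPM in WT R30. The targeted gene was thus not lower in the library labelled mec1, and its feature does not check the genotype, since the labels do not say what was altered. Leaving out the 12 features that were 2-fold in the same direction at every time gave 256 higher and 23 lower at R30.

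RNR genes and the genes induced by DNA damage showed which checkpoint targets still differed 30 min after the drug was removed. RNR2 and RNR4 encode the small subunit of RNR, and RNR1 and RNR3 the large one. RNR2 had 182, 310, 305 and 253 RPM in mec1 from G1 to R60, against 178, 2069, 569 and 280 RPM in WT. RNR4 had 278, 408, 437 and 380 RPM in mec1, against 286, 2467, 801 and 374 RPM in WT. The R30 differences were −0.90 (−1.04 to −0.76) for RNR2 and −0.87 (−0.99 to −0.76) for RNR4, compared with −2.73 and −2.59 in HU and −0.14 and 0.02 at R60. At R30 the WT library was thus between its HU level and its R60 level for both genes, while the mec1 library was close to its own HU level. RNR3 had 31.7 RPM in mec1 R30 and 21.4 RPM in WT R30 (0.55, interval 0.00 to 1.17), although in HU it had 29.9 RPM in mec1 and 130 RPM in WT. RNR1, also a G1/S gene, stood at 69.9 RPM in mec1 and 62.2 RPM in WT at R30 (0.17, interval −0.18 to 0.53). It had 98.5 RPM in mec1 and 568 RPM in WT in HU, and 109 RPM in mec1 and 338 RPM in WT at R60. In G1, before the drug, RNR1 was at 181 RPM in mec1 and 86.9 RPM in WT (1.05).

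**Figure D2:**
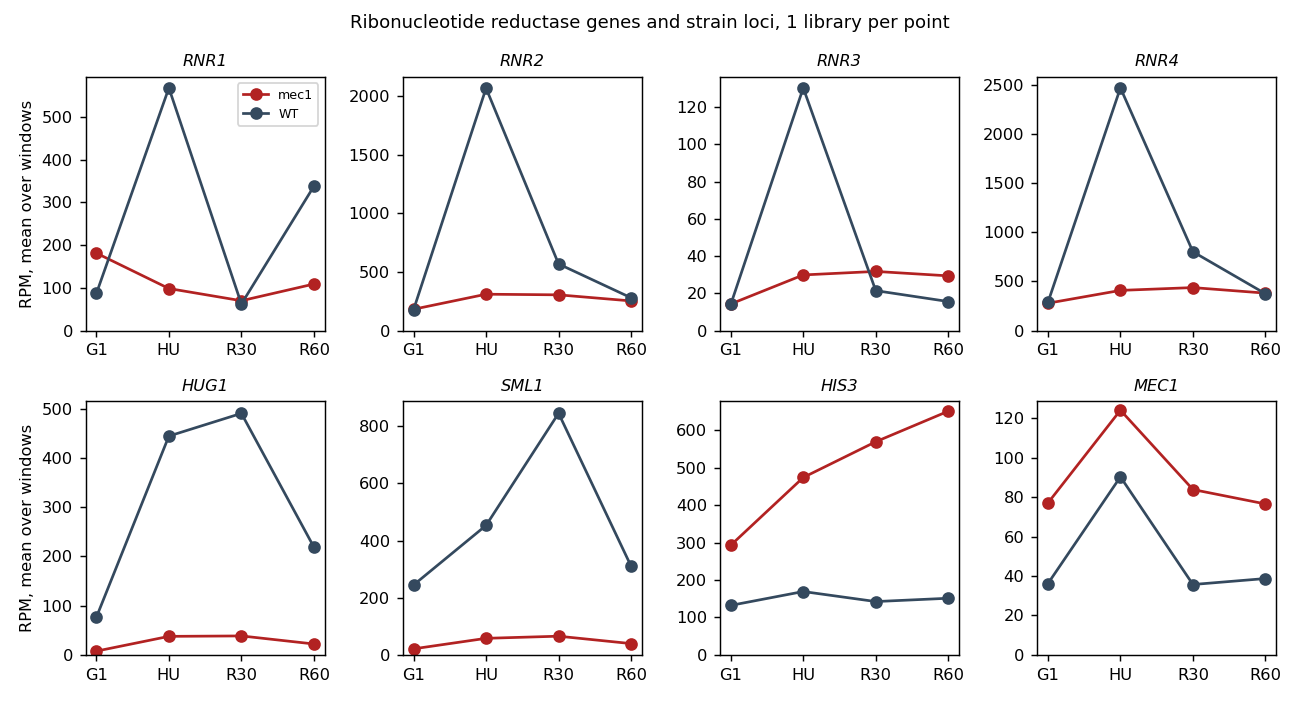
RPM of the 4 RNR genes, HUG1, SML1, HIS3 and MEC1 in mec1 (red) and WT (dark blue) at G1, HU, R30 and R60, 1 library per point and each vertical axis from 0. In WT, RNR2 and RNR4 stand at 2069 and 2467 RPM in HU and at 569 and 801 RPM at R30, while HUG1 and SML1 are below WT and HIS3 above WT at all 4 times.

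Among 17 DNA damage induced genes, 1 was 2-fold higher, 1 was 2-fold lower and the median difference was 0.24. Of all features, 4.03% were higher and 0.446% lower. HUG1 was the lower one, but it was already below WT in G1 (−3.16) and shares windows with SML1. PHR1, the photolyase gene, had 29.9 RPM in mec1 and 15.5 RPM in WT (0.90, interval 0.31 to 1.64). Damage induction of HUG1, RNR2, RNR3 and RNR4 in WT acts through release of the repressor Rfx1 from X-box elements, which hold the letters GTTGCC. In the 300 bases around the start codon of HUG1 (R64, chrXIII:158510-158809, plus strand), these letters were found on either strand at −213 and −166, counted so that the base before the start codon is −1. They are in capitals here, and the sequence is shown because HUG1 held the widest R30 gap among the checkpoint targets, one already present in G1.
HUG1: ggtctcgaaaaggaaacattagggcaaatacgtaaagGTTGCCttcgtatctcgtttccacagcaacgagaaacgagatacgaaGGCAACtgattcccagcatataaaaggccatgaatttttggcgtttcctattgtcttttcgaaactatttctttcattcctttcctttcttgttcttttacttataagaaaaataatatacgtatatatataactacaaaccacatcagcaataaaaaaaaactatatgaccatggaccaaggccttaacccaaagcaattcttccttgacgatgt
GTTGCC was present in 7.60% of 5867 promoters of that length and in 3 of the 17 damage genes (17.6%), RNR1, RAD7 and HUG1, so that RNR2, RNR3 and RNR4 did not hold it in the stretch searched. The longer X-box core was in 0 of the 17 and in 0.0852% of all promoters. A match is only a description of the letters.

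The checkpoint kinases and adaptors had 1 of 15 members 2-fold higher, MEC1, beside 4.03% of all features, none lower and a median of 0.22. RAD53, which encodes the central effector kinase, had 51.3, 41.8, 56.4 and 65.2 RPM in mec1, against 50.9, 69.8, 50.5 and 57.5 RPM in WT, and its R30 difference was 0.16 (−0.23 to 0.56). RAD24, the clamp loader gene, had 39.5 RPM in mec1 and 22.7 RPM in WT at R30 (0.77), the adaptor gene RAD9 29.1 RPM in mec1 and 19.1 RPM in WT (0.58) and the kinase gene DUN1 129 RPM in mec1 and 84.7 RPM in WT (0.60). The counting interval of RAD9 reached −0.01.

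Few cell-cycle genes passed 2-fold at R30, and the list medians lay on both sides of 0. The shares of all features were 4.03% higher and 0.446% lower. Of 32 G1/S genes, which MBF and SBF switch on late in G1, 3 were 2-fold higher, 0 were lower, 28 were positive (4130 of 6507 over all features) and the median was 0.43, against 0.13 for all features. RFA1, which encodes the large subunit of the single-strand binding complex RPA, had 81.2, 162, 156 and 166 RPM in mec1 from G1 to R60, against 53.0, 66.3, 46.0 and 124 RPM in WT (R30 difference 1.74, interval 1.42 to 2.12). SEN34, a tRNA splicing gene in the adjoining windows, had a difference of 1.87 at 64.8 RPM in mec1 and 17.0 RPM in WT. CDC21, which encodes thymidylate synthase, had 29.5, 17.0, 36.4 and 47.9 RPM in mec1, against 17.1, 37.4, 13.1 and 46.7 RPM in WT, so that it was higher in mec1 at R30 (1.41, interval 0.80 to 2.18) and lower in HU (−1.09). CLN2, the G1 cyclin gene, had 25.1 RPM in mec1 R30 and 11.2 RPM in WT R30 (1.10, interval 0.44 to 1.99). It was also higher in G1, at 76.1 RPM in mec1 and 35.3 RPM in WT (1.09).

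For the same 32 genes, the median of R60 minus R30 was 0.18 in mec1 and 1.01 in WT, and that of R30 minus HU was −0.00 in mec1 and −0.50 in WT. Among the HU, R30 and R60 libraries of WT, R30 was thus the lowest for this list. The strain difference of the list was 0.45 in G1, −0.22 in HU, 0.43 at R30 and −0.41 at R60. The promoters of RFA1 (R64, chrI:158570-158869, minus strand) and CDC21 (R64, chrXV:467540-467839, minus strand) are shown because these genes led the G1/S list. Capitals mark the MCB, the letters ACGCGT recognised by MBF, which read the same on both strands. Each promoter held 2, at −165 and −135 in RFA1 and at −158 and −121 in CDC21.
RFA1: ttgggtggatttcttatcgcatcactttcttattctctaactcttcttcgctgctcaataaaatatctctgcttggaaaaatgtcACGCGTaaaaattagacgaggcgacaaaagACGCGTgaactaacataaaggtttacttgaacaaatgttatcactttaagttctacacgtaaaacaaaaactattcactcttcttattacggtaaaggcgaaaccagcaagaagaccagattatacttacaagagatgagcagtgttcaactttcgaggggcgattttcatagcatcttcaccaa
CDC21: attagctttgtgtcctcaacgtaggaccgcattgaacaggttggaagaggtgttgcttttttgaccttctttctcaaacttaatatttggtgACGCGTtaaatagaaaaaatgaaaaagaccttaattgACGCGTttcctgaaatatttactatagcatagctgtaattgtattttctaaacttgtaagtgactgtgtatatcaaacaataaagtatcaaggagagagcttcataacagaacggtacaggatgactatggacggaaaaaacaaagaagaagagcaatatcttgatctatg
ACGCGT was present in 14 of the 32 G1/S promoters (43.8%) and in 3.12% of all 5867. The median R30 difference was 0.44 for the 14 members that hold it and 0.41 for the others, and 0.25 over all genes that hold it. Among the genes 2-fold higher in mec1 at R30, 6.55% of 229 promoters held it. The SBF letters CNCGAAA were in 28.1% of the G1/S promoters, 13.8% of all and 13.1% of the 229. G1/S genes with these letters had a median of 0.42 and those without 0.44.

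Histone genes, which are transcribed in S phase, had 1 of 10 members 2-fold lower, 2 positive and a median of −0.23. Over all features 0.446% were 2-fold lower and 4130 of 6507 were positive. HTA2, which encodes histone H2A, had 105, 149, 210 and 168 RPM in mec1 from G1 to R60, against 60.8, 144, 428 and 115 RPM in WT, a difference of −1.02 (−1.19 to −0.86) at R30. The divergent pair HHT1 and HHF1, for histones H3 and H4, stood on the other side, with 499 and 327 RPM in mec1 R30 and 278 and 188 RPM in WT R30 (0.84 and 0.79). HTB1, for histone H2B, had 159 RPM in mec1 and 205 RPM in WT (−0.36). The median of R60 minus R30 over the histone genes was 0.04 in mec1 and −0.51 in WT.

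G2/M genes of the CLB2 cluster had 1 of 17 members 2-fold lower, 5 positive and a median of −0.17. For all features the shares were 0.446% lower and 4130 of 6507 positive. CLB1, a mitotic cyclin gene, had 4.01, 26.3, 19.2 and 23.5 RPM in mec1, against 1.90, 44.4, 41.8 and 25.4 RPM in WT (R30 difference −1.08, interval −1.67 to −0.57). HOF1, which acts in cytokinesis, had 33.1 RPM in mec1 R30 and 57.0 RPM in WT R30 (−0.77), and CHS2, the septum chitin synthase gene, 85.4 RPM in mec1 and 115 RPM in WT (−0.43). The kinase gene KIN3 was above WT at 141 RPM in mec1 and 101 RPM in WT (0.48). In HU the median of the list had been 0.37, and at R60 it was 0.54. The median of R30 minus HU was 0.33 in mec1 and 1.01 in WT, and that of R60 minus R30 was −0.05 in mec1 and −0.70 in WT.

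M/G1 genes of mother-daughter separation, which the transcription factor Swi5 helps to switch on after mitotic exit, had a median of 0.29 at R30. It was −0.02 after quantile normalization. Of 17 members 1 was 2-fold higher, beside 4.03% of all features. PIR1, a cell wall mannoprotein gene, was that member. It had 16.6, 33.1, 102 and 270 RPM in mec1, against 18.5, 12.7, 18.5 and 1036 RPM in WT, a difference of 2.40 (1.93 to 3.02) at R30 and −1.94 at R60. PST1, another wall protein gene, had 97.5 RPM in mec1 R30 and 49.3 RPM in WT R30 (0.97), and 165 RPM in mec1 and 460 RPM in WT at R60. EGT2, an endoglucanase gene of cell separation, had 35.0 RPM in mec1 and 17.6 RPM in WT at R30 (0.95), and 81.0 RPM in mec1 and 400 RPM in WT at R60. These genes were thus higher in the mec1 library at R30 and higher in the WT library at R60. The median of R60 minus R30 was 0.49 in mec1 and 2.09 in WT. The M/G1 genes of replication licensing had no 2-fold member among 11 and a median of −0.07 (0.07 with neighbours separated). Among them MCM6, a helicase subunit gene, had 192 RPM in mec1 R30 and 252 RPM in WT R30 (−0.39), and ORC1, an origin recognition gene, 39.2 RPM in mec1 and 58.1 RPM in WT (−0.56).

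The PIR1 promoter (R64, chrXI:142770-143069, minus strand) is shown because its gene was well above WT at R30 and well below it at R60. Capitals mark the letters of the Swi5 site, ACCAGC, which lie at −209 on the opposite strand and so read GCTGGT here.
PIR1: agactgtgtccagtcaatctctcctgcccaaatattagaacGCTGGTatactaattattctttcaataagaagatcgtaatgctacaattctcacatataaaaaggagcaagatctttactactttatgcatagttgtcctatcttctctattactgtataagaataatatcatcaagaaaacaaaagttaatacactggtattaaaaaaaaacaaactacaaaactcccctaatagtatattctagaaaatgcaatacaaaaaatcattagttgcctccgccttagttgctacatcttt
ACCAGC was in 3 of the 17 separation genes (17.6%), ASH1, PIR1 and EGT2, and in 8.10% of all promoters. For the G2/M genes, the forkhead letters GTAAACAA were in 35.3% of promoters against 3.00% of all.

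**Figure D3:**
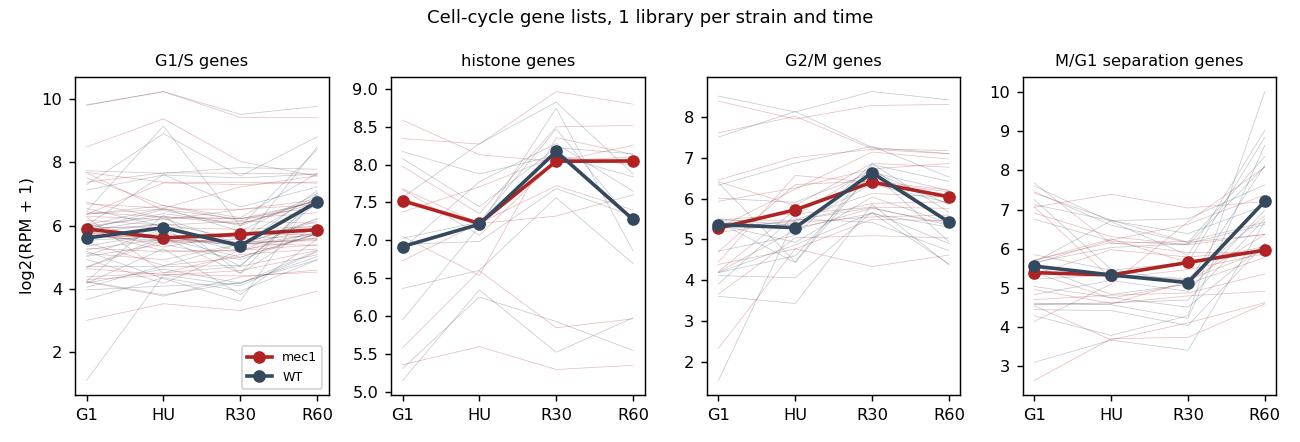
Thin lines are the members of 4 cell-cycle lists and thick lines their medians, as log2(RPM + 1) in mec1 (red) and WT (dark blue) at G1, HU, R30 and R60, 1 library per point. At R30 the mec1 median lies above WT for G1/S and separation genes and slightly below it for histone and G2/M genes, and the median of R60 minus R30 over these lists is 0.18, 0.49, 0.04 and −0.05 in mec1 and 1.01, 2.09, −0.51 and −0.70 in WT.

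The features with the largest positive differences among named genes above a mean of 20 RPM came from several processes. THI5, which acts in thiamine synthesis, led with 8.59, 74.8, 60.9 and 45.1 RPM in mec1 from G1 to R60, against 7.36, 35.0, 9.12 and 6.71 RPM in WT (2.61, interval 1.98 to 3.53). THI5 has near-identical copies elsewhere in the genome, THI11, THI12 and THI13, and how reads were divided among them was not tested. TMA10, which encodes a protein found with ribosomes, had 41.7 RPM in mec1 R30 and 7.42 RPM in WT R30 (2.34, interval 1.63 to 3.36). BTN2, whose product sorts misfolded proteins, had 36.0, 47.2, 139 and 108 RPM in mec1, against 33.6, 19.9, 33.7 and 17.2 RPM in WT (2.01, interval 1.65 to 2.47). The G1 differences of these 3 genes were −0.30 to 0.20, and each was above WT by 2-fold or more at HU, R30 and R60.

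ATG19, which encodes a receptor of selective autophagy, had 58.2 RPM in mec1 R30 and 13.7 RPM in WT R30 (2.01, interval 1.46 to 2.76). FRM2, a nitroreductase family gene, had 38.1 RPM in mec1 and 8.57 RPM in WT (2.03), with AGP1, the amino acid permease gene beside it (named after its values were seen), at 114 RPM in mec1 and 29.1 RPM in WT. NCE103, the carbonic anhydrase gene, had 612 RPM in mec1 and 191 RPM in WT (1.67, interval 1.51 to 1.85), and it shares windows with IDH1. FAA1, a fatty acyl-CoA synthetase gene, had 203 RPM in mec1 and 60.2 RPM in WT (1.74) and PBI2, a vacuolar protease inhibitor gene, 56.9 RPM in mec1 and 16.2 RPM in WT (1.75). PCA1, which encodes a metal-transporting ATPase, had 57.1 RPM in mec1 and 15.9 RPM in WT (1.78), beside the phosphate transporter gene PHO89 at 39.1 RPM in mec1 and 10.7 RPM in WT (1.78).

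The stress and chaperone lists had medians above the 0.13 of all features, of which 4130 of 6507 were positive and 4.03% were 2-fold higher. Of 31 general stress genes, targets of Msn2 and Msn4, 6 were 2-fold higher, 0 were lower, 28 were positive, 27 lay above the median of all features and the median was 0.56. HSP12, which encodes a small membrane-protecting protein, had 12.8, 23.8, 26.8 and 30.1 RPM in mec1, against 7.98, 7.07, 6.44 and 8.57 RPM in WT (1.91, interval 1.14 to 3.06 at R30). GPD1, for glycerol synthesis, had 32.1, 61.8, 66.1 and 60.5 RPM in mec1, against 48.3, 159, 24.0 and 19.3 RPM in WT, so it was below WT in HU (−1.35) and above it at R30 (1.43). GPP2, of the same pathway, had 63.0 RPM in mec1 and 30.2 RPM in WT at R30 (1.03). SIP18, at 17.7 RPM in mec1 and 7.46 RPM in WT (1.14), took the other sign when neighbours were separated (−0.30). The Msn2 and Msn4 letters AGGGG were in 64.5% of the list's promoters, 21.7% of all and 25.3% of those of 2-fold higher genes. List members with the letters had a median R30 difference of 0.54, and those without 0.64.

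Of 26 heat shock genes, 2 were 2-fold higher, 0 lower and 20 positive, with 16 above the median of all features and a median of 0.37. HSP104, which encodes the disaggregase that pulls apart aggregated proteins, had 86.2, 277, 280 and 285 RPM in mec1, against 82.8, 46.8, 90.1 and 47.6 RPM in WT (R30 difference 1.63, interval 1.39 to 1.89). BTN2 was the other. HSP42, a small heat shock protein gene, had 102 RPM in mec1 R30 and 51.4 RPM in WT R30 (0.97), and the Hsp90 gene HSP82 308 RPM in mec1 and 159 RPM in WT (0.94). The members below WT included the ribosome-associated Hsp70 genes SSB1 (657 RPM in mec1 and 972 RPM in WT, −0.56) and SSB2 (566 RPM in mec1 and 694 RPM in WT, −0.29), named after their values were seen. Heat shock and general stress genes share HSP26 in these lists. The letters searched for as the heat shock element were in 8 of 26 heat shock promoters (30.8%) and in 0.801% of all. They were in 0 of the 229 promoters of 2-fold higher genes, and none were found in the HSP104 promoter. Heat shock genes with these letters had a median R30 difference of 0.30, and those without 0.40. The HSP104 promoter (R64, chrXII:88373-88672, plus strand) is shown because this gene had one of the widest gaps after G1, and capitals mark its AGGGG letters at −220 and −172.
HSP104: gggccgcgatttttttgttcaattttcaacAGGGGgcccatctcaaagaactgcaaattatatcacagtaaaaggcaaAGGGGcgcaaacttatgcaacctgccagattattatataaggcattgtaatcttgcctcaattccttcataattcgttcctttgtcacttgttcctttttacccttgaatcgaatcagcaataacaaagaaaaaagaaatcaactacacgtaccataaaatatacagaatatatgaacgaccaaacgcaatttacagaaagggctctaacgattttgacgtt

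Proteasome genes had 31 of 33 positive differences, 27 of them above the median of all features, and a median of 0.33. In this list 1 member was 2-fold higher, beside 4.03% of all features, and 0 were lower. In G1, before the drug, 31 of the 33 were already positive, with a median of 0.16 against 0.06 for all features. RPT2, a base ATPase gene, had 177, 365, 473 and 435 RPM in mec1, against 160, 105, 199 and 138 RPM in WT (1.25, interval 1.08 to 1.42 at R30). PRE1, a core subunit gene, had 428 RPM in mec1 R30 and 215 RPM in WT R30 (0.99). RPN4, the transcription factor that drives the set, had 139 RPM in mec1 and 77.1 RPM in WT (0.84). The Rpn4 letters GGTGGCAAA were in 27 of 33 of these promoters (81.8%), in 1.21% of all and in 1.75% of those of 2-fold higher genes. The median was 0.33 for proteasome genes with the letters and 0.38 for those without. Oxidative stress genes of Yap1 had 0 of 21 members past 2-fold in either direction and a median of 0.22, with the multidrug transporter genes FLR1 (41.4 RPM in mec1 and 20.5 RPM in WT, 0.98) and ATR1 (100 RPM in mec1 and 57.0 RPM in WT, 0.81) the farthest above WT. Endoplasmic reticulum folding genes had 0 of 17 past 2-fold and a median of 0.28. There ERO1, an oxidase of disulphide formation, had 246 RPM in mec1 and 128 RPM in WT (0.94), and HAC1, the transcription factor of the unfolded protein response, 88.6 RPM in mec1 and 146 RPM in WT (−0.71).

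**Figure D4:**
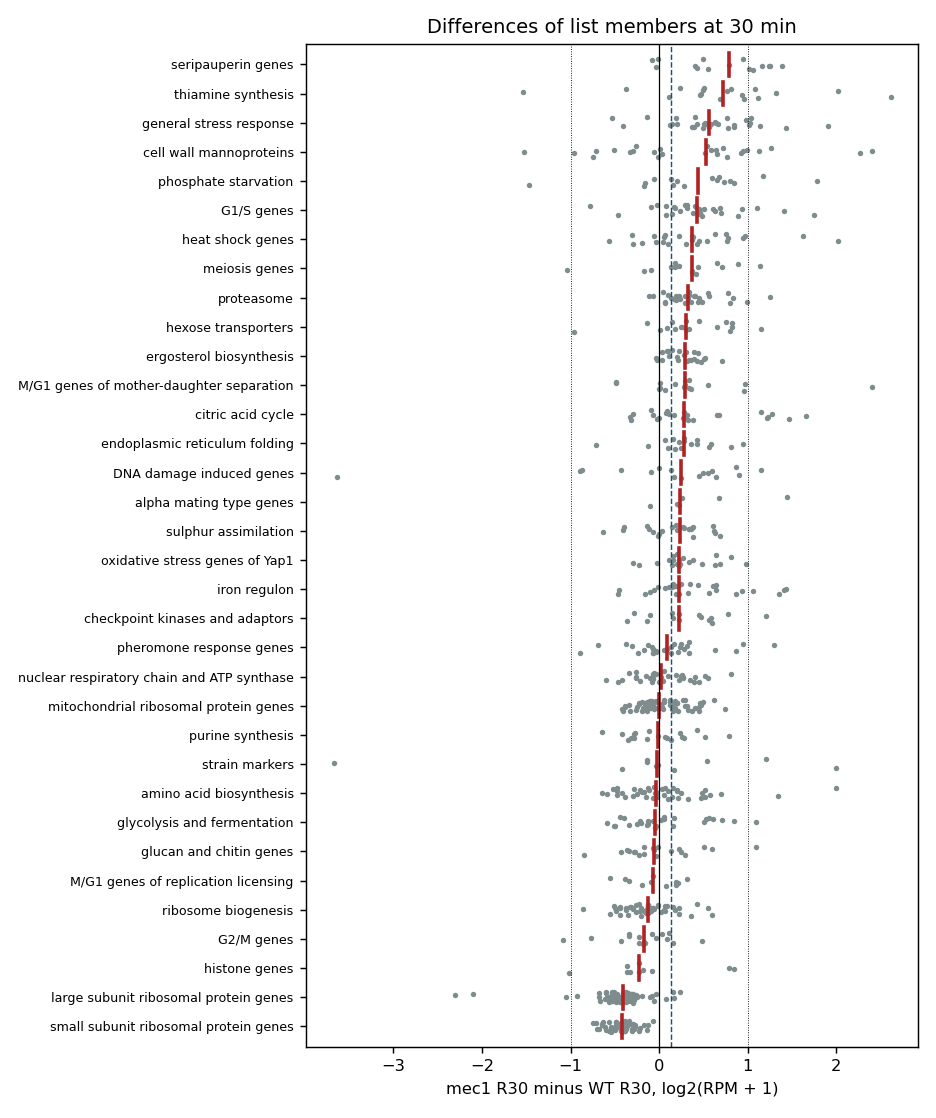
Points are the members of the 34 gene lists, placed by mec1 R30 minus WT R30 on the log2(RPM + 1) scale, with the list median in red, the median of all features (0.13) dashed and 2-fold dotted. The medians run from 0.79 for seripauperin genes to −0.41 for both sets of ribosomal protein genes, and 22 of 34 lie above 0.

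Citric acid cycle genes had 6 of 25 members 2-fold higher, 0 lower, 18 positive and a median of 0.28. Their products make oxaloacetate, citrate and the compounds next in the cycle. Over all features 4.03% were 2-fold higher and 4130 of 6507 were positive, and 15 of the 25 genes lay above the median of all. CIT2, the peroxisomal citrate synthase gene, had 79.7, 90.2, 149 and 87.5 RPM in mec1, against 86.2, 103, 46.7 and 44.7 RPM in WT (R30 difference 1.65, interval 1.33 to 2.03). IDH1, a subunit gene of isocitrate dehydrogenase, had 144, 222, 1108 and 681 RPM in mec1, against 164, 116, 402 and 227 RPM in WT (1.46, interval 1.34 to 1.58). ACO1, the aconitase gene, had 150, 45.6, 1241 and 820 RPM in mec1, against 203, 51.7, 529 and 375 RPM in WT (1.23, interval 1.13 to 1.34). ACO1 was close to WT in HU (−0.18) and above it at both recovery times. PYC1, a pyruvate carboxylase gene, had 92.2 RPM in mec1 R30 and 37.5 RPM in WT R30 (1.27). The other members past 2-fold were the citrate synthase genes CIT3 (1.22), which is next to the methylcitrate dehydratase gene PDH1 (88.0 RPM in mec1 and 26.7 RPM in WT, 1.68), and CIT1 (1.15). The malate dehydrogenase genes MDH1 to MDH3, named like CIT1 and CIT3 after their values were seen, lay between −0.33 and −0.07.

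Other energy lists differed less, and 4.03% of all features were 2-fold higher. Nuclear respiratory chain and ATP synthase genes had 0 of 36 members past 2-fold and a median of 0.02, which was −0.11 with the median of all features set to 0. NDI1, the internal NADH dehydrogenase gene, had 89.9 RPM in mec1 R30 and 50.9 RPM in WT R30 (0.81), and the ATP synthase gene ATP2 288 RPM in mec1 and 437 RPM in WT (−0.60). Glycolysis and fermentation genes had 1 of 27 members 2-fold higher, PDC5, a pyruvate decarboxylase gene, at 25.0 RPM in mec1 and 11.2 RPM in WT (1.09), and a median of −0.05. Hexose transporter genes had 1 of 18 higher, HXT10 at 13.8 RPM in mec1 and 5.68 RPM in WT (1.15), and a median of 0.30. HXT4, a high-affinity transporter gene, went the other way, with 1421, 371, 317 and 421 RPM in mec1, against 1508, 402, 618 and 1359 RPM in WT (−0.96 at R30 and −1.69 at R60).

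Thiamine synthesis genes had a median of 0.72, with 5 of 18 members 2-fold higher and 1 lower. Among all features 4.03% were higher and 0.446% lower. After THI5 came THI12 (12.7 RPM in mec1 R30 and 4.51 RPM in WT R30, 1.31) and SNZ2 (4.83 RPM in mec1 and 0.439 RPM in WT, 2.02, interval 0.40 to 8.58), which is beside THI12 and rests on few reads. The transporter gene THI7 (1.12) and the THI5 copy THI11 (1.08), named after their values were seen, were the remaining members past 2-fold. THI5, THI11 and THI12 are near-identical copies and SNZ2 shares windows with THI12, so the 5 are not all separate observations. THI11, THI12 and SNZ2 were below 20 RPM in both libraries. Among all features, 11.5% of those with a mean of 5 to 20 RPM were 2-fold higher, and 23.6% of those under 5 RPM. The lower one was PHO3, the thiamine-repressible acid phosphatase gene, at 187 RPM in mec1 R30 and 547 RPM in WT R30 (−1.54, interval −1.71 to −1.39), and the separated difference was −1.77. In HU it had 100 RPM in mec1 and 103 RPM in WT. PHO5 beside it had a difference of −1.47, which was −0.22 once neighbours were separated.

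In the phosphate starvation list, 2 of 16 members were 2-fold higher and 1, PHO5, lower, with a median of 0.43. The same shares over all features, also for the iron list below, were 4.03% and 0.446%. The high-affinity transporter gene PHO84 had 132, 173, 313 and 102 RPM in mec1, against 157, 385, 138 and 105 RPM in WT, so that it was below WT in HU (−1.15) and above it at R30 (1.17, interval 0.97 to 1.39). PHO89 was the other. Iron regulon genes, which Aft1 controls, had 4 of 29 members 2-fold higher and 0 lower, with a median of 0.22. They were the ferric reductase genes FRE3 (42.6 RPM in mec1 and 15.1 RPM in WT, 1.44) and FRE2 (21.2 RPM in mec1 and 7.33 RPM in WT, 1.41) and the wall mannoprotein genes FIT1 (7.64 RPM in mec1 and 2.38 RPM in WT, 1.35) and FIT2 (195 RPM in mec1 and 93.4 RPM in WT, 1.05). FIT1 had a counting interval of 0.23 to 3.84. The Aft1 letters GCACCC were in 51.7% of the list's promoters, in 4.18% of all and in 6.55% of those of 2-fold higher genes. Iron genes with the letters had a median of 0.16 and those without 0.30.

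Amino acid biosynthesis genes had 2 of 43 members 2-fold higher, 0 lower and a median of −0.04, which was 0.05 after quantile normalization. That share of higher members was near the 4.03% of all features. Besides HIS3, the ornithine carbamoyltransferase gene ARG3 had 15.8, 24.8, 168 and 207 RPM in mec1, against 32.9, 173, 65.6 and 92.0 RPM in WT, below WT in G1 (−1.01) and HU (−2.76) and above it at R30 (1.34, interval 1.06 to 1.67). ARG1, of the same pathway, had 965 RPM in mec1 R30 and 595 RPM in WT R30 (0.70), after 379 RPM in mec1 and 898 RPM in WT in HU. CAR1, which encodes the arginase that breaks arginine down, had 74.5 RPM in mec1 and 173 RPM in WT at R30 (−1.20, interval −1.48 to −0.94). Sulphur assimilation genes had 0 of 24 past 2-fold and a median of 0.23, and purine synthesis genes 0 of 19 and a median of −0.02 (0.09 with neighbours separated). AAH1, the adenine deaminase gene of purine salvage, was lower, at 89.3 RPM in mec1 and 183 RPM in WT (−1.02). Ergosterol genes had 22 of 24 positive differences, 0 past 2-fold and a median of 0.29, with ERG11, the demethylase gene, at 1117 RPM in mec1 and 683 RPM in WT (0.71). Of the 24, 17 lay above the median of all features, and 4130 of all 6507 features were positive. In G1, before the drug, 22 of these ergosterol genes were already positive, with a median of 0.10.

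Ribosomal protein genes were the most uniform group below WT. All 56 small subunit genes had negative differences, from −0.74 to −0.07, and a median of −0.41, and none passed 2-fold. Of 81 large subunit genes, 3 were 2-fold lower, 0 were higher, 4 were positive and the median was −0.41. Over all features 0.446% were 2-fold lower and 2377 of 6507 differences were negative. The summed values were 27891 RPM in mec1 R30 and 37588 RPM in WT R30 for the small subunit, and 34102 RPM in mec1 and 46203 RPM in WT for the large one. In G1 the list medians had been −0.11 and −0.09, in HU −0.20 and −0.22, and at R60 they were −0.41 and −0.42. Genes with and without introns did not separate within the group, with medians of −0.41 for 89 ribosomal protein genes with 2 or more exons and −0.42 for 48 with 1.

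A pair of ribosomal protein genes stood far below the others. RPL8A had 392, 74.8, 87.5 and 110 RPM in mec1 from G1 to R60, against 396, 205, 437 and 418 RPM in WT (R30 difference −2.31, interval −2.54 to −2.10). RPL9B had 268, 105, 74.2 and 87.3 RPM in mec1, against 284, 197, 321 and 304 RPM in WT (−2.10, interval −2.36 to −1.87). Their paralogs were near the rest of the list, with RPL8B at 693 RPM in mec1 R30 and 854 RPM in WT R30 (−0.30) and RPL9A at 657 RPM in mec1 and 849 RPM in WT (−0.37). The copies are similar in sequence, and how reads were divided between them was not tested. RPL22B was the third past 2-fold, at 76.0 RPM in mec1 and 159 RPM in WT (−1.05), followed by RPL7B at −0.93 (−1.34 to −0.55). The ribosome scaffold gene ASC1 had 679 RPM in mec1 and 1309 RPM in WT (−0.95, interval −1.04 to −0.86).

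Ribosome biogenesis genes had 0 of 51 members past 2-fold, 13 positive and a median of −0.13. The nucleolar gene NSR1 had 401 RPM in mec1 R30 and 590 RPM in WT R30 (−0.56), and PWP2, of the small subunit processome, 213 RPM in mec1 and 141 RPM in WT (0.59). UTP20, at −0.86, shares windows with HTA2 and was at −0.18 when separated. Mitochondrial ribosomal protein genes, 67 in all, had none past 2-fold. Their median was −0.00, below the 0.13 of all features, and 24 of the 67 lay above the median of all features. The medians of the cytosolic ribosomal protein lists were lower, at −0.41 for both. The difference between the mitochondrial and cytosolic lists was not tested.

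Among other genes, MRH1, a plasma membrane protein gene, had 45.8, 213, 308 and 273 RPM in mec1, against 46.1, 264, 891 and 436 RPM in WT (R30 difference −1.53, interval −1.66 to −1.41). NPL3, which encodes an mRNA-binding export protein, had 121 RPM in mec1 R30 and 267 RPM in WT R30 (−1.13), with YDR431W and YDR433W in overlapping windows. FLO11, the flocculin gene, had 576 RPM in mec1 and 1126 RPM in WT (−0.96) and the fatty acid elongase gene ELO1 had a difference of −0.94 (−1.20 to −0.70). SPS4, a sporulation gene at 10.1 RPM in mec1 and 21.8 RPM in WT, and YLR227W-B, at 0 RPM in mec1 R30 and 1.65 RPM in WT R30, were lower at low values. Of the 29 lower features, 18 were 2-fold at R30 alone.

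Cell wall genes held members on both sides, where 4.03% of all features were 2-fold higher and 0.446% lower. Of 26 genes in the cell wall mannoprotein list, 4 were 2-fold higher and 1 was lower, with a median of 0.53. The lower one was the plasma membrane protein gene MRH1. The median was only −0.01 over members with a mean of 20 RPM or more. DAN1, an anaerobic mannoprotein gene, had 23.6 RPM in mec1 R30 and 4.12 RPM in WT R30 (2.27, interval 1.36 to 3.71), and the flocculin gene FLO9 7.99 RPM in mec1 and 2.75 RPM in WT (1.26). Glucan and chitin genes had 1 of 20 higher and a median of −0.06. The transglycosylase gene CRH1 was that one, at 241 RPM in mec1 and 113 RPM in WT (1.09), while at R60 it had 397 RPM in mec1 and 743 RPM in WT. Seripauperin genes, near-identical copies mostly at chromosome ends, had 6 of 15 members 2-fold higher, 0 lower and a median of 0.79, and −0.02 over the members with a mean of 20 RPM or more. PAU15 had 14.1 RPM in mec1 and 5.31 RPM in WT (1.25) and PAU20 6.55 RPM in mec1 and 2.20 RPM in WT (1.24).

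Position and level went with the share of higher features. Within 20 kb of the outermost feature of a chromosome end, 47 of 240 features (19.6%) were 2-fold higher and 0 were lower, with a median difference of 0.54. Farther away, 215 of 6267 (3.43%) were higher and the median was 0.12. The same contrast held within levels. Below a mean of 20 RPM, 24.0% of 150 features near the ends and 10.9% of 588 farther away were higher, and from 20 RPM upward 12.2% of 90 and 2.66% of 5679. In G1 the medians had been 0.04 near the ends and 0.06 farther away, and in HU −0.06 and 0.07, and at R60 they were 0.46 and 0.09. By level alone, 23.6% of the 123 features under 5 RPM were higher, and 1.59% of the 945 features at 200 RPM or more, whose median was −0.12.

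Chromosomes also differed. The share of features 2-fold higher was 15.7% on chromosome VI, 10.3% on I and 8.89% on III, the smallest chromosomes of yeast, and 1.95% to 5.60% on the other 13. As a group, formed after these values were seen, chromosomes I, III and VI had a median difference of 0.30 over 427 features, and the other 13 one of 0.12 over 6080. Over features farther than 20 kb from an end and at 20 RPM or more, the medians were 0.25 (n = 333) and 0.08 (n = 5346). The medians of the small chromosomes against the others were 0.11 and 0.05 in G1, 0.19 and 0.05 in HU, and 0.39 and 0.09 at R60.

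Most of what was 2-fold higher at R30 was on the same side at R60. Of the 262 higher features, 243 were positive at R60 and 107 (40.8%) were 2-fold higher there, beside 3.52% of all 6498 features kept at that time. In HU, 208 were positive and 106 (40.5%) were 2-fold higher, beside 5.21% of 6491. In G1, 141 were positive and 11 (4.20%) were 2-fold higher, beside 0.402% of 6471. HU, R30 and R60 were all 2-fold for 59 features, and R30 was the only time for 103. The median differences of the 262 were 0.05 in G1, 0.74 in HU, 1.25 at R30 and 0.92 at R60. For all features they were 0.06, 0.06, 0.13 and 0.10, so the G1 value did not stand out. The 262 formed 158 groups with overlapping windows and are not separate observations. Each of these times rests on its own pair of libraries, but the members were picked at R30, which fixes their direction only there. For the 29 lower features the counts were 6 in G1, 7 in HU and 11 at R60, beside 0.232%, 1.51% and 1.28% of all features.

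**Figure D5:**
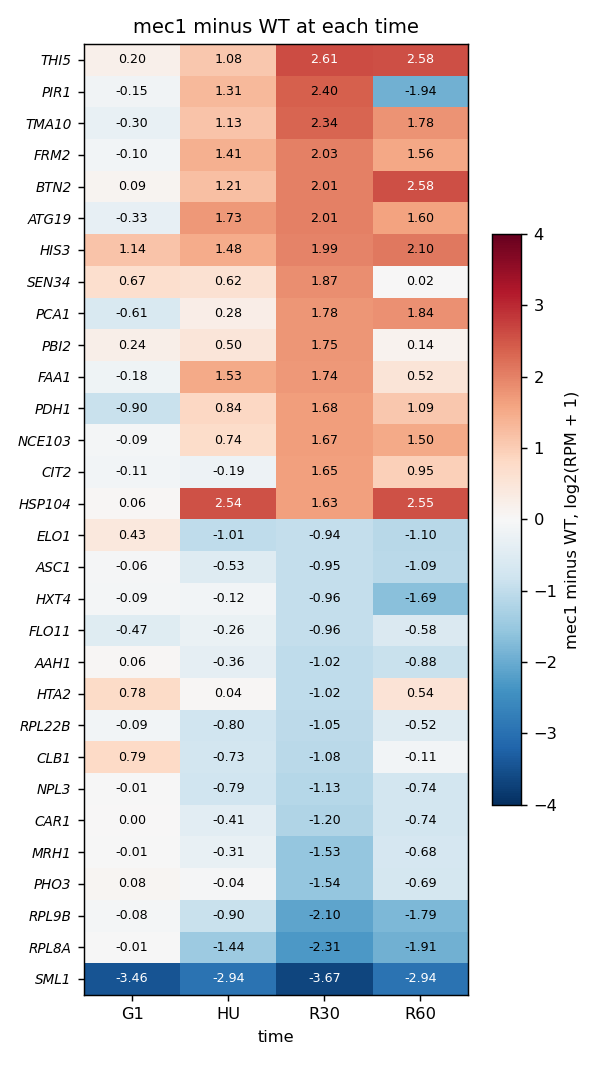
mec1 minus WT on the log2(RPM + 1) scale at each time for the 15 named genes with the largest positive and the 15 with the largest negative difference at R30, which were chosen by their R30 values. In G1, SML1 (−3.46) and HIS3 (1.14) are past 2-fold and PDH1 (−0.90), CLB1 (0.79) and HTA2 (0.78) are the next farthest from 0, while PIR1 has 2.40 at R30 and −1.94 at R60.

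Among the alpha-cell and sporulation markers, SAG1 was above the median feature in mec1 R30 (66.8 RPM) and below that in WT R30 (61.0 RPM), and the other 7 were below the median in both. The summed values of 4 alpha-cell markers were 109 RPM in mec1 R30 and 71.6 RPM in WT R30, mostly from SAG1 (77.9 RPM in mec1 and 48.5 RPM in WT), and those of 4 sporulation markers 68.9 RPM in mec1 and 56.1 RPM in WT. Markers of a cells, the type that alpha factor arrests, summed to 994 RPM in mec1 and 1308 RPM in WT, with the receptor gene STE2 at 212 RPM in mec1 and 396 RPM in WT (−0.90). Of the other 4, AGA2 (−0.38) and MFA2 (−0.24) were below WT, and MFA1 (0.25) and BAR1 (0.16) above it. No marker of either group was at 0. The counts that follow stand beside 4.03% of all features 2-fold higher and 0.446% lower. Of 29 pheromone response genes, 1 was 2-fold higher, the fusion gene FUS1 at 59.0 RPM in mec1 and 23.4 RPM in WT (1.30), and the median of 0.09 was −0.04 with the median of all features set to 0. Among 6 alpha mating type genes, STE3 was 2-fold higher at 10.9 RPM in mec1 and 3.37 RPM in WT (1.44) and the median of 0.24 was −0.27 after quantile normalization. Among 15 meiosis genes, REC8 was 2-fold higher (7.27 RPM in mec1 and 2.75 RPM in WT, interval −0.06 to 3.21) and SPS4 lower, and the median of 0.37 was −0.01 after quantile normalization. Of 10 strain markers, HIS3 and MEC1 were higher, SML1 was lower, TRP1 stood at 61.1 RPM in mec1 and 41.8 RPM in WT (0.54) and the median was −0.03. The part of these cell types in the differences above was not tested.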

How the data were processed

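Messenger RNA libraries were made with a stranded kit and read as pairs of 75 bp, per the labels' protocols and the series description. Reads were aligned with BWA to sacCer3, per the submitters' processing notes, without a version, and the counting tool is not given in the sources used here. In the deposited table the header says log2 RPKM, but the values are neither logged nor divided by length. By their steps they behave as RPM values averaged over all windows touching a feature. The sources used here do not state this. Windows taken as each gene body and a flank of 1000 bp on each side gave the table's number of windows for 6326 of 6547 features (96.6%). A window does not record strand in the table, so antisense and overlapping genes are not told apart. The table's coordinates match the R64 start for 994 of 5895 genes, so genes were matched to RefSeq's R64 annotation by identifier, and R64 coordinates are given for promoters alone.

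From the deposited values, log2(RPM + 1) differences were taken, and 2-fold (1 on the log2 scale) was counted without a test. Intervals are exact Clopper-Pearson intervals at 95%, with a median of 163 (mec1 R30) and 111 (WT R30) reads per window. The reads carry no molecular identifiers. Neighbours were separated by non-negative least squares along each chromosome. The separation was run on simulated data made with the same window model as the fit, so its recovery there does not check that model. For made changes of 2 and −2 it returned medians of 2.01 and −1.95, and the window averages 1.73 and −1.30. Whether differences from the table understate gene changes in the same way was not tested.

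The comparison, the gene lists, the motifs and the naming rule were chosen with earlier results of these data known. Named were the 15 largest differences each way among genes with a standard name, a mean of 20 RPM and the same sign after separation, leaving out sharers of windows with a larger one, up to 4 per list, and MEC1, SML1, RAD53, HUG1 and RNR1 to RNR4. List genes without a row in the table were not analysed here. A few genes that the rule picks are not reported here. Promoters are 250 bases before to 50 after the start codon's first base, and motifs were searched on both strands. Other pseudocounts, filters, scalings, fold bounds and the separation were tried. Python 3.11.15 with numpy 2.4.6, pandas 2.3.3, scipy 1.17.1 and matplotlib 3.10.9 was used.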

Additional observations from a re-analysis of the deposited data

Results flagged for a closer look

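The differences below took opposite signs by 2-fold or more at R30 and at another time, or, for a gene list, medians of opposite sign more than 1 apart on the log2 scale. Each time rests on 1 library per strain, so none of these contrasts between times was tested. PIR1, the cell wall mannoprotein gene, had a mec1 minus WT difference of 2.40 at R30 and −1.94 at R60, and the median of the M/G1 genes of mother-daughter separation was 0.29 and −1.47. The cyclin gene CLN2 had 1.10 at R30 and −1.83 at R60, after 1.09 in G1. CDC21, for thymidylate synthase, had 1.41 at R30 and −1.09 in HU. In HU the glycerol synthesis gene GPD1 was at −1.35 and the phosphate transporter gene PHO84 at −1.15, against 1.43 and 1.17 at R30. ARG3, of arginine synthesis, had 1.34 at R30, −1.01 in G1 and −2.76 in HU, and PHO89, for phosphate uptake, 1.78 at R30 and −1.13 in G1.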

How the results depend on the processing

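The count of features higher in mec1 R30 was 262, and 156 with a pseudocount of 5, 162 with a mean of 20 RPM or more, 133 after quantile normalization, 756 with neighbours separated, 907 at 1.5-fold, 16 at 4-fold and 158 with 1 feature per group of overlapping windows. The count of features lower in mec1 R30 was 29, and 48 with the median of all features set to 0, 52 after quantile normalization, 195 with neighbours separated, 143 at 1.5-fold, 9 at 4-fold and 15 with 1 feature per group of overlapping windows. Fold bounds and groups change the counts by construction, and the cause of the other shifts was not tested. A pseudocount of 0.1 gave 321 and 32, and thinning the libraries to the same reads 282 and 28. The thinning, the grouping of overlapping windows and the count without features that differed at all times were chosen after seeing the data. Of 34 list medians, 34 kept their sign with either pseudocount, 32 with the median of all features set to 0, 28 after quantile normalization and 31 with neighbours separated. Of 152 genes picked by the naming rule, 146 kept it with neighbours separated and 150 after quantile normalization. SIP18 took the other sign at −0.30 with neighbours separated, against 1.14 as deposited. No paired analysis was possible because each strain and time has 1 library. No replicate could be left out for the same reason, so the spread between cultures is unknown and every size above may hold differences between single cultures. At low values few reads stand behind a difference, and genes that share windows or sequence are not resolved.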
